A study of Mus musculus with 60 samples.

Results

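Immunoglobulin variable (V) segment genes were taken as all genes whose symbol, in any of the 10 deposited result tables, begins with Ighv, Igkv or Iglv, and 164 of the 49315 genes in the count tables met this rule. They comprised 75 heavy chain segments (Ighv) on chromosome 12, 86 kappa light chain segments (Igkv) on chromosome 6 and 3 lambda light chain segments (Iglv) on chromosome 16, and 10 of them are annotated as pseudogenes, with 2.75% of the V counts. Whole blood RNA was sequenced from 60 male CD2F1 mice, an F1 hybrid strain, 5 to 6 weeks old at purchase, in 10 groups of 6. For 6 days, each morning and evening, the mice received vehicle or BIO 300 Oral Powder by mouth. The powder, a dispersion of synthetic genistein, was given at 50, 100 or 200 mg/kg. Blood was drawn 24 h after the last dose (Day 0) or 48 h after it (Day 1) from unirradiated mice of all 4 treatments, and on Day 1 also from vehicle-treated and 200 mg/kg mice given 9.2 Gy total-body irradiation (TBI, 60Co) 24 h earlier. Each mouse was bled once, so Day 0 and Day 1 are different animals, and no group carried a transgene or deletion.

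A B cell builds the variable region of each antibody chain from a choice of germline V segments, joined to D and J segments in the heavy chain and to a J segment in the kappa or lambda light chain, and splices it to a constant-region gene. Each mature B cell therefore transcribes mainly a single heavy and a single light V segment, and in blood the sum over V segments follows the number of B cells and plasma cells and the amount of antibody mRNA in each, while the spread over segments follows how many different B cells are sampled. The heavy constant genes mark the stage of the cell: Ighm and Ighd are transcribed together in naive B cells, and Igha and the Ighg genes after class switching. In bulk blood fewer cells and less RNA per cell cannot be told apart.

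The segments on which the results turn are shown with the last bases of their germline coding sequence, from the GENCODE M21 transcripts on GRCm38, 5′ to 3′ on the coding strand. The 2 lambda segments Iglv1 (chr16:19085017-19085316, minus strand) and Iglv2 (chr16:19260401-19260700, minus strand) differ at 11 of 351 coding bases, 8 of them in the 300 bases printed, and the capitals mark those bases. They are shown because their reads can be confused while their levels diverged between groups.

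Iglv1: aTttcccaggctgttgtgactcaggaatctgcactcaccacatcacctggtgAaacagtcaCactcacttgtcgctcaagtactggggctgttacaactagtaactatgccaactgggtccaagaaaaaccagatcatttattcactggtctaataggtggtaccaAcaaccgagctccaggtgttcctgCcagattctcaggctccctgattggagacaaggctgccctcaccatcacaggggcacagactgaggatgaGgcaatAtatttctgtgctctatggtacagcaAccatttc

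Iglv2: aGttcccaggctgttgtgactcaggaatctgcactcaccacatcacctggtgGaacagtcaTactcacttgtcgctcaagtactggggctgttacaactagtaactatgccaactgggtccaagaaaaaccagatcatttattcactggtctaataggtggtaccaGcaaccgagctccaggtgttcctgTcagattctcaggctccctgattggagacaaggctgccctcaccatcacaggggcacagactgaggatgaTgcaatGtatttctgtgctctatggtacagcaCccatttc

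Iglv3 (chr16:19241207-19241326, minus strand), the segment with the highest mean level, shares only 55.8% identity with its nearest relative, Iglv1. Igkv10-96 (chr6:68631963-68632082, minus strand) and Ighv2-9 (chr12:113879096-113879215, minus strand) had the highest means of their loci. Ighv11-2 (chr12:114048241-114048360, minus strand) and Igkv14-126 (chr6:67896523-67896642, plus strand) are segments known for antibodies of B-1a cells against phosphatidylcholine, and they were chosen after their values were seen. Capitals run from the last in-frame cysteine codon to the end of the segment. The bases after that codon are the germline start of the third complementarity-determining region. All 120 bases of each stretch lie in the V exon.

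Iglv3: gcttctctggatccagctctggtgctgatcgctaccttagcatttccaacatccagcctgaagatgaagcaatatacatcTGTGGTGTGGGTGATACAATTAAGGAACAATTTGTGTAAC

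Igkv10-96: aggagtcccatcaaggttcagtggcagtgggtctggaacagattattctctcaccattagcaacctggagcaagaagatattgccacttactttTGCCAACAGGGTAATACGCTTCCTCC

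Ighv2-9: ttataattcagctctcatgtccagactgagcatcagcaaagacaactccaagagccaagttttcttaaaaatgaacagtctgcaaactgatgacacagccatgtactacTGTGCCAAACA

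Ighv11-2: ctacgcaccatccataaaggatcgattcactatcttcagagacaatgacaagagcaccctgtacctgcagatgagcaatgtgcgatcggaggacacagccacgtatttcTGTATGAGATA

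Igkv14-126: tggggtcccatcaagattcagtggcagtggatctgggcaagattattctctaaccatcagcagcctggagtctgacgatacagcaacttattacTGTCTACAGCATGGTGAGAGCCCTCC

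These are C57BL/6 reference sequences, and the alleles of CD2F1 mice were not compared with them. Of the 164 segments, 89 are over 95% identical to another V gene, so levels of single segments within such families are uncertain, since reads can be split between relatives. Igkv5-43 is 98.6% identical to Igkv5-45, Ighv11-2 is 98.9% identical to Ighv11-1, and Igkv10-96 is 95.4% identical to Igkv10-94. A further 184 V genes of the count tables are in none of the result tables, hold 2.60% of all V counts and were not used here.

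Total counts ranged from 15099415 to 45589415 per mouse, and V counts per mouse from 282 to 25568 with a median of 7147.5. Levels are CPM, counts scaled to a common library size after trimmed-mean (TMM) normalisation over the 60 mice, given as lowest, median and highest of 6 mice, and DEGs are genes whose log2 fold change exceeded 1 in size at a Benjamini-Hochberg adjusted p (over all genes, edgeR's quasi-likelihood test) below 0.05. Blood RNA differed between groups well beyond B cells: at 100 and 200 mg/kg on Day 1 all 7 platelet and all 4 haemoglobin genes were DEGs, higher than in vehicle-treated mice, and all 8 T cell genes were lower. Transcripts of 12 hepatocyte genes summed to over 100 CPM in 11 mice of several groups.

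In unirradiated mice without BIO 300, V transcripts were mostly kappa, and no segment was called different between days. The summed V level was 254, 378 and 444 CPM on Day 0 and 309, 354 and 497 CPM on Day 1. In the Day 1 group the 86 Igkv segments summed to 201, 229 and 323 CPM, the 75 Ighv segments to 71.9, 94.6 and 120 CPM, and the 3 Iglv segments to 31.1, 35.9 and 53.6 CPM. The ranges of the 2 days overlapped at each locus.

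Of the 164 segments, 85 had a mean over 1 CPM across the 60 mice, 28 of them Ighv, 54 Igkv and all 3 Iglv. Iglv3 led with a mean of 14.0 CPM, followed by Iglv1 at 8.10 CPM and Igkv10-96 at 7.21 CPM, and the leading heavy segment was Ighv2-9 at 3.21 CPM. These means compare counts without correction for length, but the annotated exonic lengths of the 4 segments lie close together, at 381, 391, 359 and 362 bases. The constant genes lay higher: heavy constant genes summed to 828.7, 999.9 and 1343 CPM in vehicle-treated Day 1 mice and Igkc, the single kappa constant gene, to 441, 477 and 698 CPM.

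No V segment was a DEG between vehicle-treated mice of Day 1 and Day 0, where 0% of all genes were called, and the median log2 fold change was -0.03 (edgeR). The same count of 0 was found at 100 and 200 mg/kg on Day 0 and at 50 mg/kg on Day 1, each with 0% of all genes called, and at 50 mg/kg on Day 0, where 4.5% of all genes were called. Over the 164 segments the median log2 fold change on Day 0 was 0.25, 0.04 and -0.26 for the doses of 50, 100 and 200 mg/kg, and for 50 mg/kg on Day 1 it was -0.13. The 3 Day 0 doses share 1 control group.

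At an unadjusted p under 0.05, edgeR listed 1 segment between the days, 31, 2 and 9 segments at 50, 100 and 200 mg/kg on Day 0, and 9 at 50 mg/kg on Day 1, where 12.3% of all genes between the days, 31.0, 3.02 and 9.01% at the 3 doses and 18.5% at 50 mg/kg on Day 1 were below the same unadjusted p. DESeq2 called 0 segments in each of these 5 comparisons. Of all genes it called 5.45% lower and 0.0653% higher at 50 mg/kg on Day 0. In each of the other comparisons it called no more than 0.148% of all genes in either direction, so a count of 0 says little there. At 200 mg/kg on Day 0, 2 segments had values that did not overlap those of vehicle-treated mice, where 0.29% of all genes did. Scaling by total counts instead of TMM gave 41 segments called higher at 50 mg/kg on Day 0, with 10.5% of all genes called higher by that scaling. Scaling by B cell identity genes gave 1 segment called lower there, with 9.41% of all genes called lower.

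**Figure D1:**
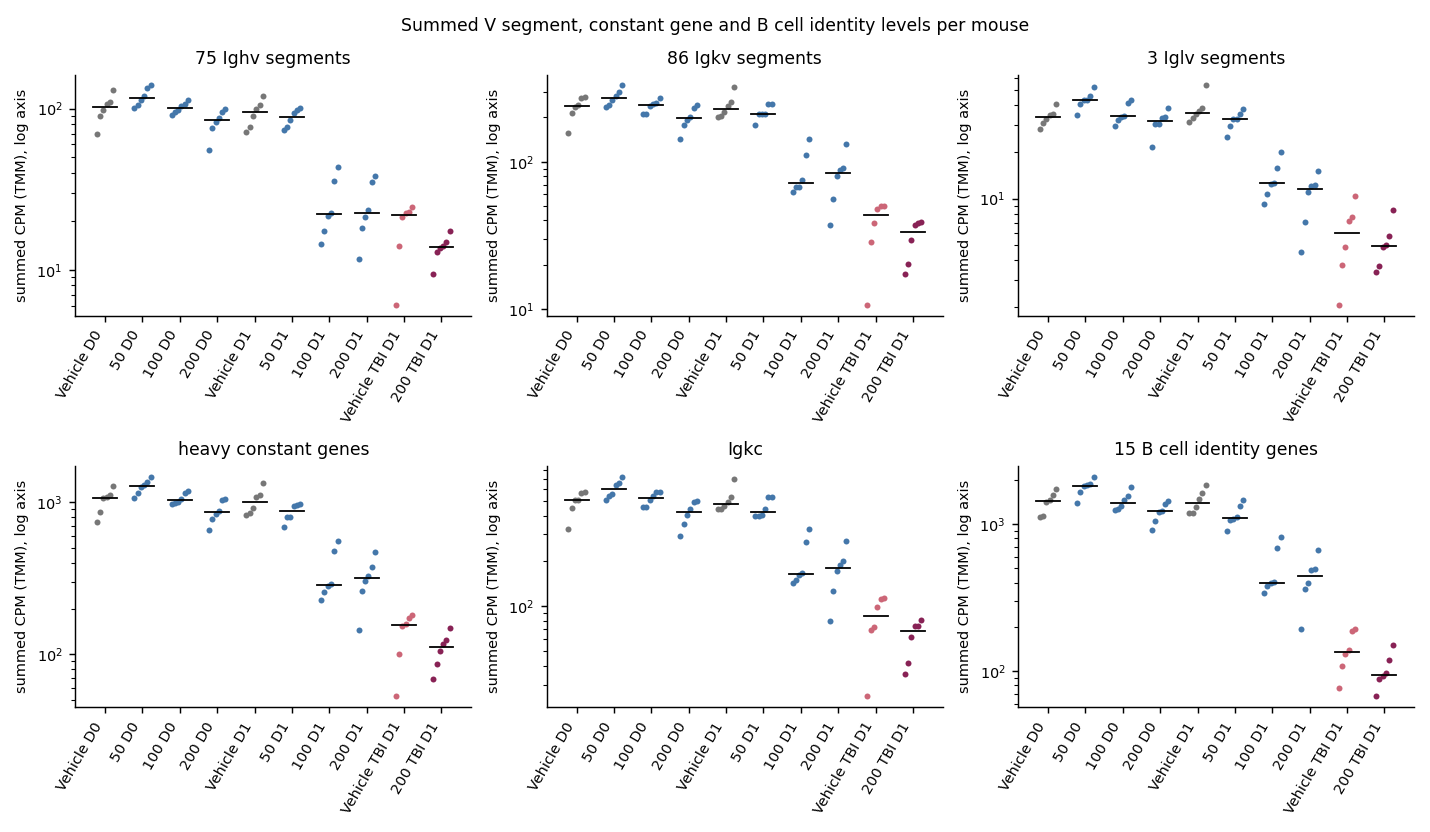
Summed CPM (TMM, log axis) of the 75 Ighv, 86 Igkv and 3 Iglv segments, the heavy constant genes, Igkc and 15 B cell identity genes in each of the 60 mice, with bars at group medians and mice ordered by value within a group (D0, Day 0, D1, Day 1, numbers are mg/kg of BIO 300). The medians of the 4 groups at 100 mg/kg, 200 mg/kg, TBI and 200 mg/kg with TBI on Day 1 lay below those of the other 6 groups in every panel, with median Ighv sums of 22.1, 22.4, 21.9 and 13.9 CPM against 94.6 CPM in vehicle-treated Day 1 mice, an order that holds for TMM and not relative to B cell genes, where the Ighv median after TBI was higher by 0.98 (log2).

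On Day 1, V segments of all 3 loci were lower in mice given 100 or 200 mg/kg than in vehicle-treated mice with TMM or total counts, while with B cell gene scaling the Igkv median turned to 0.04 and 0.08 at the 2 doses. The summed V level was 85.6, 106 and 205 CPM at 100 mg/kg and 53.1, 118 and 179 CPM at 200 mg/kg, against 309, 354 and 497 CPM with vehicle. The ratio of medians, vehicle over treated, was 4.29 for Ighv, 3.20 for Igkv and 2.86 for Iglv at 100 mg/kg, and 4.22, 2.72 and 3.11 at 200 mg/kg. None of the 12 treated mice reached the lowest vehicle-treated mouse at any locus.

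All 164 segments passed the count filter in both comparisons. At 100 mg/kg, 139 were DEGs, all lower, where 30.6% of all genes were called lower. These were 66 of 75 Ighv, 71 of 86 Igkv and 2 of 3 Iglv segments, and DESeq2 called 142, where it called 27.3% of all genes lower. The median log2 fold change was -1.58 over V segments (-1.80 for Ighv, -1.43 for Igkv) and -0.38 over all genes. The values of the groups did not overlap for 77 segments, where 46.2% of all genes did not. With scaling by total counts the median was -2.94 against -1.76 over all genes.

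At 200 mg/kg, 135 of 164 segments were DEGs, all lower, where 30.5% of all genes were called lower. These were 63 Ighv, 69 Igkv and 3 Iglv segments, and DESeq2 called 141, where it called 27.2% of all genes lower. The median log2 fold change was -1.69 over V segments (-1.90 for Ighv, -1.53 for Igkv) and -0.48 over all genes, and 85 segments did not overlap, where 45.8% of all genes did not. With total counts the medians were -3.16 and -1.96. Both doses share the vehicle-treated Day 1 group.

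The 3 lambda segments, all of which lie upstream of lambda constant genes, had unlike values. Iglv3 measured 18.4, 22.6 and 29.2 CPM with vehicle, 3.74, 5.45 and 8.86 CPM at 100 mg/kg and 2.82, 4.87 and 10.3 CPM at 200 mg/kg. Neither dose group overlapped the vehicle group, with log2 fold changes of -1.92 (SE 0.21, adjusted p = 2.77e-06, edgeR) and -1.94 (SE 0.26, adjusted p = 1.75e-05, edgeR). Iglv2 measured 2.36, 3.23 and 5.14 CPM with vehicle and 1.18, 1.99 and 3.69 CPM at 100 mg/kg, ranges that overlapped. Its log2 fold change was -0.44 (SE 0.29, adjusted p = 0.189, edgeR) at 100 mg/kg and -1.05 (SE 0.34, adjusted p = 0.0147, edgeR) at 200 mg/kg.

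Iglv1 measured 9.84, 10.5 and 19.3 CPM with vehicle, 3.71, 4.95 and 7.38 CPM at 100 mg/kg and 1.41, 3.24 and 4.84 CPM at 200 mg/kg. The treated mice lay below all vehicle-treated mice, with log2 fold changes of -1.10 (SE 0.22, adjusted p = 0.000682, edgeR) and -1.80 (SE 0.27, adjusted p = 4.82e-05, edgeR).

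All 8 of the most abundant Ighv segments were DEGs at both doses, with log2 fold changes from -2.68 to -1.33 at 100 mg/kg and from -2.49 to -1.65 at 200 mg/kg. Ighv2-9 measured 2.97, 4.06 and 5.31 CPM with vehicle, 0.437, 1.07 and 2.95 CPM at 100 mg/kg and 0.344, 0.953 and 1.94 CPM at 200 mg/kg. Its ranges did not overlap at 200 mg/kg, and at 100 mg/kg the highest treated mouse lay next to the lowest control. Among called segments with separate ranges and a mean of at least 1 CPM in either group, the largest falls were those of Ighv14-1 (-3.32, SE 0.52, adjusted p = 7.05e-05, edgeR) and Ighv6-6 (-3.25, SE 0.57, adjusted p = 0.000192, edgeR) at 100 mg/kg, and of Ighv1-7 (-3.66, SE 0.54, adjusted p = 4.47e-05, edgeR) and Ighv1-18 (-3.25, SE 0.68, adjusted p = 0.000855, edgeR) at 200 mg/kg.

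Ighv14-1 measured 1.35, 1.52 and 2.19 CPM with vehicle and 0, 0.119 and 0.369 CPM at 100 mg/kg. Ighv1-7 measured 1.29, 1.78 and 2.48 CPM with vehicle and 0, 0.123 and 0.391 CPM at 200 mg/kg. Both groups were separated without overlap, and at these levels single mice held few or no reads.

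Among the 8 most abundant Igkv segments, all 8 were DEGs with 100 mg/kg (-1.59 to -1.14) and 7 with 200 mg/kg (-1.76 to -1.11). Igkv10-96 measured 7.95, 9.34 and 14.4 CPM with vehicle, 1.55, 3.01 and 7.38 CPM at 100 mg/kg and 1.41, 3.53 and 5.18 CPM at 200 mg/kg. The treated mice of both groups lay below the control mice, but for Ighv2-9 and Igkv10-96 at 100 mg/kg the ranges overlapped when only the mice of that comparison were normalised together. The exception was Igkv1-135 at 200 mg/kg (-0.72, SE 0.52, adjusted p = 0.234, edgeR), whose values were 0.65, 2.00 and 13.0 CPM against 5.72, 6.70 and 8.63 CPM with vehicle, and the single high value was that of mouse 43.

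The constant genes were lower too. Heavy constant genes summed to 228, 288 and 559 CPM at 100 mg/kg and 145, 317 and 474 CPM at 200 mg/kg, below all vehicle-treated mice. Ighm, the constant gene of IgM, had log2 fold changes of -1.31 (SE 0.24) and -1.38 (SE 0.24), Ighd of IgD -1.58 (SE 0.25) and -1.92 (SE 0.24), and Igha of IgA -2.77 (SE 0.34) and -2.39 (SE 0.40), and all 6 values were DEGs. Igkc fell by 1.28 (SE 0.23) and 1.49 (SE 0.24) on the log2 scale.

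The IgG genes Ighg1 (-2.35 and -2.29), Ighg2b (-1.42 and -1.48) and Ighg2c (-2.74 and -2.08) were DEGs at both doses. Ighg3 was a DEG at 200 mg/kg (-1.58), and at 100 mg/kg (-0.97, adjusted p = 0.000701, edgeR) its fold missed the threshold. The heavy constant genes Ighe and Ighg2a were not tested. Of the lambda constant genes, Iglc1 (-0.88 and -0.98), Iglc2 (-0.63 and -0.97) and Iglc3 (-0.60 and -0.98) missed the fold threshold at both doses, and Iglc4 had -1.11 (adjusted p = 0.0775, edgeR) and was a DEG at 200 mg/kg (-1.97). Pou2f2 (-1.56 and -1.50) and Pou2af1 (-1.18 and -1.36), the octamer factor and its coactivator that act at V promoters, were DEGs, and the third octamer gene listed, Pou2f1 (-0.30 and -0.37), was not. Iglc2 and Iglc3 are near-identical genes whose reads are hard to assign.

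**Figure D2:**
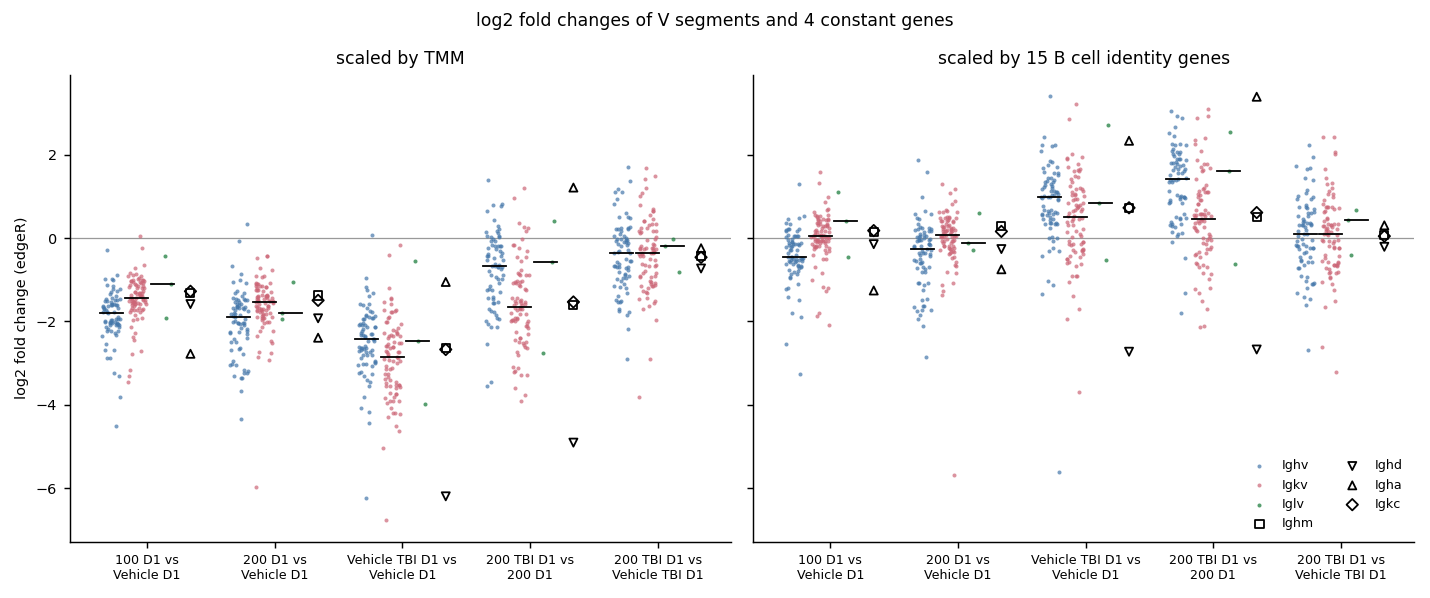
Log2 fold changes from edgeR of each V segment (points, Ighv blue, Igkv red, Iglv green, bars at medians) and of Ighm, Ighd, Igha and Igkc (open symbols) in 5 comparisons, scaled by TMM (left) or by 15 B cell identity genes (right). With TMM the V medians were -1.58 and -1.69 at 100 and 200 mg/kg and -2.64 after TBI, and with B cell scaling they were -0.10, -0.04 and 0.68.

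Set against other B cell genes, the V segments as a group kept close to them at both doses. The 15 B cell identity genes, among them Cd79a and Ms4a1, summed to 1192, 1394 and 1851 CPM with vehicle, 338, 399 and 811 CPM at 100 mg/kg and 193, 443 and 662 CPM at 200 mg/kg, and 13 of 15 were DEGs, lower, at each dose. When libraries were scaled by these 15 genes, 100 mg/kg gave 4 V segments called higher and 9 called lower, where 47.6% of all genes were called higher and 8.99% lower. With 200 mg/kg 0 segments were higher and 9 lower, where 6.54% of all genes were lower, and the V medians were -0.10 and -0.04 against 1.17 and 1.20 over all genes. The Ighv median was then -0.44 and the Igkv median 0.04 at 100 mg/kg, and -0.26 and 0.08 at 200 mg/kg.

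Ighv counts were low relative to heavy constant counts at 100 mg/kg, while the kappa ratio overlapped that of vehicle. No test was run on sums or ratios, and their ranges are given instead. Ighv counts per heavy constant count were 0.0868, 0.0899 and 0.0983 with vehicle, 0.0631, 0.0738 and 0.0798 at 100 mg/kg and 0.0646, 0.0755 and 0.102 at 200 mg/kg. The 100 mg/kg mice did not overlap the vehicle-treated mice, and at 200 mg/kg the single mouse above the vehicle range was mouse 43.

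Igkv counts per Igkc count had medians of 0.467, 0.430 and 0.466 in the vehicle, 100 and 200 mg/kg groups, with overlapping ranges. Iglv counts per lambda constant count were 0.244, 0.249 and 0.285 with vehicle, 0.130, 0.150 and 0.180 at 100 mg/kg and 0.0986, 0.144 and 0.215 at 200 mg/kg, without overlap at either dose. Set against the B cell identity genes instead, the lambda V ratio did not fall at 100 mg/kg, with a log2 ratio of medians of 0.07.

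**Figure D3:**
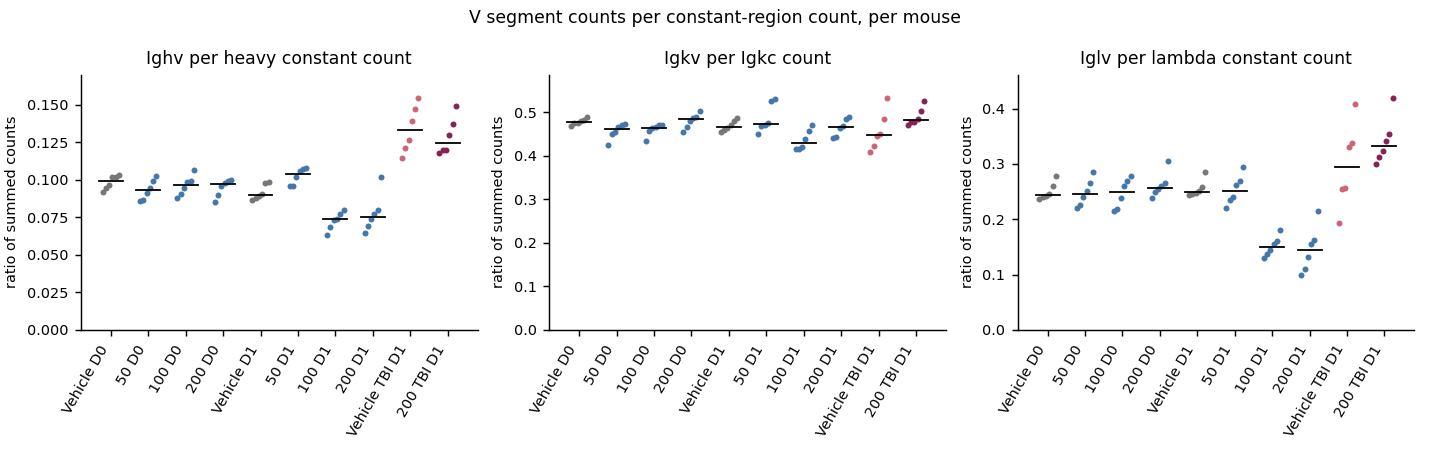
Ratio of summed V counts to summed constant-region counts in each of the 60 mice for the heavy (Ighv per heavy constant), kappa (Igkv per Igkc) and lambda (Iglv per lambda constant) loci, with bars at group medians and linear axes from 0. The heavy ratio had medians of 0.0738 and 0.0755 at 100 and 200 mg/kg on Day 1 and of 0.133 and 0.125 in the 2 irradiated groups, against 0.0899 in vehicle-treated Day 1 mice, while the kappa medians stayed between 0.430 and 0.484.

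After TBI, V segments of vehicle-treated mice were lower than in unirradiated mice on Day 1, with a lower median log2 fold change for kappa than for heavy segments, and with B cell gene scaling the direction turned to medians of 0.98 for Ighv and 0.50 for Igkv. The summed V level was 18.9, 72.3 and 82.3 CPM against 309, 354 and 497 CPM, and the ratio of medians, unirradiated over irradiated, was 4.32 for Ighv, 5.28 for Igkv and 5.98 for Iglv. No irradiated mouse reached an unirradiated one at any locus. The lowest value belonged to mouse 50, which held the 282 V counts that were the fewest of all mice.

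Of the 164 segments, 148 were DEGs, all lower, where 16.4% of all genes were called lower. These were 69 Ighv, 77 Igkv and 2 Iglv segments, and DESeq2 called 151, where it called 14.3% of all genes lower. The median log2 fold change was -2.64 over V segments (-2.41 for Ighv, -2.85 for Igkv) and 0.09 over all genes, and 129 segments did not overlap, where 25.0% of all genes did not. Against vehicle-treated mice of Day 0 instead, 143 segments were lower (median -2.56), where 11.8% of all genes were called lower, and 117 did not overlap, where 18.0% of all genes did not.

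Iglv3 measured 0.986, 1.35 and 2.28 CPM after TBI, with a log2 fold change of -3.99 (SE 0.25, adjusted p = 9.83e-07, edgeR). Iglv2 measured 0.401, 2.10 and 4.56 CPM, with a log2 fold change of -0.55 (SE 0.43, adjusted p = 0.296, edgeR). All 6 irradiated mice were below the unirradiated range for Iglv3, whereas for Iglv2 the ranges overlapped. Iglv1 lay between them, at 0.468, 2.30 and 3.84 CPM with a log2 fold change of -2.46 (SE 0.45, adjusted p = 0.000813, edgeR).

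The 8 most abundant Ighv segments were all DEGs, each with -1.86 or lower, and so were the 8 Igkv segments, from -3.95 to -2.49. Ighv2-9 measured 0.267, 0.715 and 1.80 CPM after TBI (-2.14, SE 0.40, adjusted p = 0.000842, edgeR), and Igkv10-96 measured 0.802, 1.71 and 3.48 CPM (-2.49, SE 0.33, adjusted p = 8.51e-05, edgeR). For both, the irradiated mice lay below the unirradiated range.

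Among called segments with separate ranges and a mean of at least 1 CPM, the largest falls were those of 2 kappa segments of the Igkv4 family. Igkv4-51 measured 2.03, 3.06 and 4.03 CPM in unirradiated mice and 0, 0 and 0.0799 CPM after TBI, where 4 of 6 mice held no read, and it was a DEG (adjusted p = 7.5e-06, edgeR) whose fitted fold depends on the prior count. Igkv4-80 measured 0.725, 1.00 and 1.25 CPM and 0, 0.0493 and 0.0845 CPM (-4.28, SE 0.46, adjusted p = 2.07e-05, edgeR). Neither pair of ranges overlapped.

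At the other end, 16 segments were not DEGs, most of which are not described here. The B-1a-type pair printed above is 2 of them, chosen after their values were seen. Other segments known from B-1a cells were not examined as a set, and a part of B-1a cells was not tested. Ighv11-2 measured 0.185, 0.289 and 0.567 CPM in unirradiated mice and 0.134, 0.288 and 0.733 CPM after TBI (0.08, SE 0.40, adjusted p = 0.879, edgeR). Igkv14-126 measured 1.30, 1.46 and 2.08 CPM and 0.201, 1.15 and 2.45 CPM (-0.41, SE 0.40, adjusted p = 0.412, edgeR). Both overlapped between groups, and as shares of their loci both were higher in vehicle-treated mice with TBI than without it. Ighv11-2 took 0.241, 0.302 and 0.628% of Ighv counts without and 0.835, 1.75 and 3.46% with TBI. Igkv14-126 took 0.517, 0.607 and 1.02% of Igkv counts without and 1.55, 2.71 and 6.35% with TBI. Neither pair of ranges overlapped. The Ighv11-2 levels of 0.134 to 0.733 CPM after TBI rest on few reads in single mice, and reads can be split with its relative Ighv11-1. At 200 mg/kg with TBI the shares overlapped those of both unirradiated groups, with 0.291, 1.13 and 2.73% for Ighv11-2 against 0, 0.513 and 1.89% at 200 mg/kg alone, and 0.941, 3.24 and 5.28% for Igkv14-126 against 0.446, 1.03 and 1.47%.

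After TBI the median log2 fold change of the B cell identity genes was -3.50, below that of the V segments. They summed to 76.4, 135 and 194 CPM, the ratio of medians, unirradiated over irradiated, was 10.3, and all 15 were DEGs, lower. When libraries were scaled by these 15 genes, 43 V segments were called higher (27 Ighv, 15 Igkv and 1 Iglv) and 4 lower, with a V median of 0.68 where the median over all genes was 3.51 and 91.8% of all genes were called higher and 0.243% lower. Under that scaling Ighv11-2 was higher by 3.42, Igkv14-126 by 2.86 and Iglv2 by 2.72 on the log2 scale, and Igkv4-51 was lower (-3.69). Against Day 0 the same scaling gave 35 segments higher and 3 lower, where 90.8% of all genes were higher and 0.202% lower.

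The constant genes diverged by class. Heavy constant genes summed to 53.2, 156 and 181 CPM after TBI. Ighd had the largest fall of the heavy constant genes (-6.20, SE 0.35), followed by Ighg1 (-4.78, SE 0.49) and Ighm (-2.65, SE 0.30), while Igha was not a DEG (-1.05, SE 0.51, adjusted p = 0.105, edgeR). Ighg2b (-2.18) and Ighg3 (-1.71) were DEGs, and Ighg2c (-0.96, adjusted p = 0.393, edgeR) was not. Igkc (-2.67), Iglc1 (-2.63), Iglc2 (-2.79), Iglc3 (-3.68) and Iglc4 (-3.19) were DEGs, as were Pou2f2 (-2.51) and Pou2af1 (-3.08).

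Ighd made up 32.9, 36.4 and 41.8% of heavy constant counts without and 1.53, 4.28 and 7.54% with TBI, and Igha made up 3.81, 8.28 and 9.78% without and 7.02, 31.5 and 40.4% with TBI. The Ighd shares did not overlap and the Igha shares did. Ighv counts per heavy constant count were 0.114, 0.133 and 0.155 after TBI, above all unirradiated mice of that comparison (0.0868, 0.0899 and 0.0983), and the Igkv to Igkc ratio overlapped with medians of 0.447 and 0.467. The part of these class shifts in the heavy ratio was not tested.

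Of 8 plasma cell genes, 4 were DEGs, lower, and their summed level overlapped between groups (35.7, 73.7 and 264 CPM after TBI against 112, 122 and 154 CPM). Jchain, which links the units of secreted IgM and IgA and was chosen after its values were seen, was not a DEG (-1.05, adjusted p = 0.0884, edgeR). Neutrophil genes moved the other way, with 6 of 8 higher and 1 lower, and all 8 T cell genes were lower, and their part in the V levels was not tested.

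Between the 2 irradiated groups no V segment was a DEG. The summed V level was 30.0, 52.4 and 61.9 CPM at 200 mg/kg with TBI against 18.9, 72.3 and 82.3 CPM with vehicle and TBI, and the groups overlapped at every locus. Of 159 segments tested, 0 were DEGs by edgeR and 0 by DESeq2, where 0% of all genes were called, and 8 had an unadjusted p under 0.05 by edgeR (5.03%, against 2.76% of all genes) and 12 by DESeq2 (7.55%, against 1.23%). The median log2 fold change was -0.35 over V segments and -0.07 over all genes. Iglv3, the segment with the highest mean, measured 0.545, 0.812 and 1.26 CPM, a difference of -0.82 (SE 0.31), with an adjusted p of 1.00 (edgeR).

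Among mice given 200 mg/kg, some V segments, mostly kappa, were lower with TBI than without it. Of 160 segments tested, 30 were DEGs, lower, where 5.73% of all genes were called lower. They were 27 Igkv, 2 Ighv and 1 Iglv segment, and 10 segments did not overlap, where 17.1% of all genes did not. The median log2 fold change was -1.66 for Igkv, -0.66 for Ighv and 0.41 over all genes, with total counts the Ighv median turned to 0.21 while the Igkv median was -0.76, and with B cell gene scaling the medians turned to 1.42 and 0.46. Total counts gave 1 segment higher and 9 lower, where 38.5% of all genes were higher and 0.945% lower, and B cell gene scaling gave 32 higher and 3 lower, where 82.4% were higher and 0.119% lower. The summed V levels of the groups overlapped (53.1, 118 and 179 CPM without and 30.0, 52.4 and 61.9 CPM with TBI). The count fell to 15 without mouse 46 of the unirradiated 200 mg/kg group and to 19 without mouse 45, and it rose to 52 when the 11 mice with over 100 CPM of hepatocyte transcripts were left out, an alternative chosen after the data were seen in which 8.38% of all genes were called lower.

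Iglv3 was 2.82, 4.87 and 10.3 CPM without and 0.545, 0.812 and 1.26 CPM with TBI (-2.75, SE 0.36, adjusted p = 0.00018, edgeR). By the same rule the largest falls were those of Igkv3-4 (-3.19, SE 0.67, adjusted p = 0.00361, edgeR) and Igkv19-93 (-3.12, SE 0.56, adjusted p = 0.00127, edgeR). Igkv3-4 measured 1.19, 2.17 and 3.42 CPM without and 0.0191, 0.208 and 0.568 CPM with TBI, and Igkv19-93 0.759, 3.19 and 5.18 CPM and 0.0477, 0.493 and 0.529 CPM. Of the B cell identity genes 14 of 15 were DEGs, lower (median -2.41). Ighd (-4.91, SE 0.33) and Ighm (-1.60, SE 0.27) were DEGs, and Igha was higher (1.21, SE 0.43, adjusted p = 0.0499, edgeR).

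The difference between the irradiation effects at 200 mg/kg and with vehicle was tested by the interaction term with TMM scaling. It was called for 37 of 164 segments (22.6%), a share close to the 19.5% of all genes called higher. In all of them the log2 fold change with TBI was higher at 200 mg/kg than with vehicle. These were 19 Ighv, 16 Igkv and 2 Iglv segments, the median interaction was 1.55 over V segments and 0.60 over all genes, and DESeq2 called 46 (28.0%), where it called 17.3% of all genes higher. Iglv3 had an interaction of 1.35 (SE 0.41, adjusted p = 0.0132, edgeR) and Igkc of 1.25 (SE 0.43, adjusted p = 0.0285, edgeR). The interaction of Ighv1-7 was 3.94 (SE 0.82). That segment was named for its large fall at 200 mg/kg without TBI, and the interaction uses the same values. Its size is therefore not a separate result.

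The 4 group medians of summed V level were 354 CPM with vehicle, 72.3 CPM with vehicle and TBI, 118 CPM at 200 mg/kg and 52.4 CPM at 200 mg/kg with TBI. The 2 unirradiated groups were separate and the 2 irradiated groups overlapped. Scaled by B cell identity genes, 5 segments had a higher and 1 a lower interaction, where 4.97% of all genes were called higher and 28.3% lower, and by total counts 97 were higher, where 43.6% of all genes were.

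**Figure D4:**
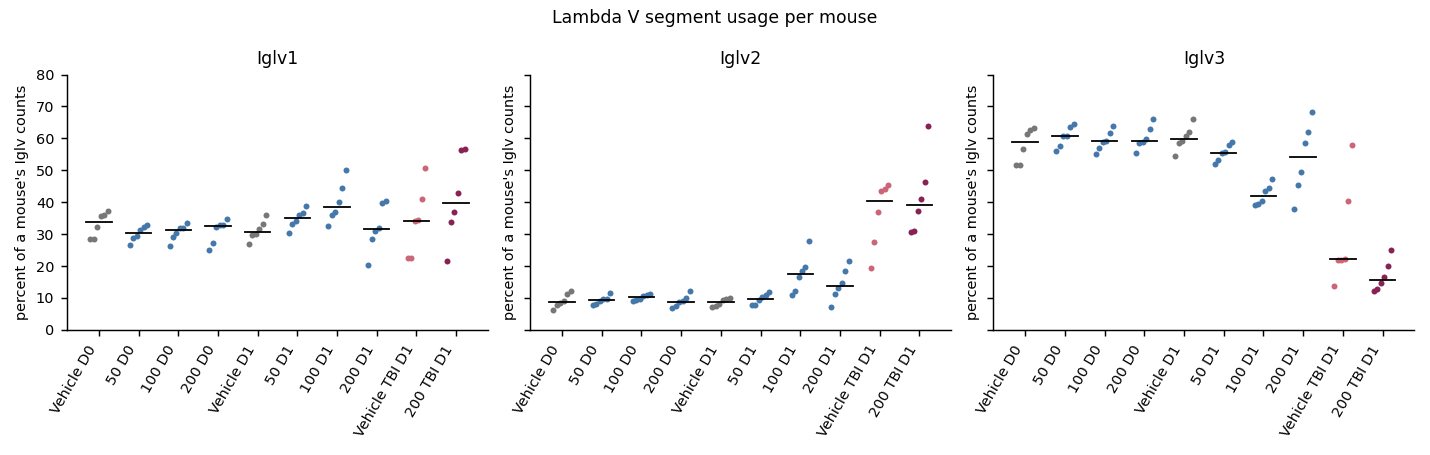
Percent of each mouse's Iglv counts assigned to Iglv1, Iglv2 and Iglv3 in the 60 mice, with bars at group medians on linear axes from 0. Iglv3 held a median of 59.9% in vehicle-treated Day 1 mice and 22.1% after TBI, Iglv2 8.80% and 40.3%, with overlap for Iglv3 through 1 irradiated mouse at 58.1%, mouse 50 with the fewest V counts.

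Within the lambda locus Iglv3 held a smaller and Iglv2 a larger share in the irradiated groups and at 100 mg/kg on Day 1. Iglv3 took 54.4, 59.9 and 66.1% of Iglv counts in vehicle-treated Day 1 mice, 39.0, 41.9 and 47.3% at 100 mg/kg and 37.9, 54.0 and 68.3% at 200 mg/kg. The 100 mg/kg mice lay below the vehicle range and the 200 mg/kg mice spanned it. Iglv2 took 7.11, 8.80 and 10.1% with vehicle, 11.0, 17.5 and 27.9% at 100 mg/kg and 7.14, 13.9 and 21.6% at 200 mg/kg.

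After TBI Iglv2 took 19.4, 40.3 and 45.3% with vehicle and 30.7, 39.1 and 63.7% at 200 mg/kg, above all unirradiated vehicle-treated mice. Iglv3 took 13.8, 22.1 and 58.1% and 12.2, 15.7 and 25.0%. Iglv2 (chr16:19260401-19260859) and Iglv3 (chr16:19241207-19241690) lie next to each other on GRCm38, while Iglv1 (chr16:19085017-19085500) lies apart from them. Iglv1 and Iglv2 are the pair that differs at 11 coding bases, and how reads were divided between them was not tested.

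The share of heavy among V counts was lower at 100 mg/kg and higher after TBI than in vehicle-treated Day 1 mice. Ighv held 22.0, 25.1 and 28.0% of V counts with vehicle on Day 1, 16.8, 20.7 and 21.8% at 100 mg/kg and 28.2, 30.1 and 32.3% after TBI. Neither range overlapped that of vehicle-treated Day 1 mice, and the TBI range overlapped that of Day 0. Iglv held medians of 13.8, 13.4 and 14.4% of light chain V counts in the same groups, with overlap.

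Igkv counts were spread over fewer segments in irradiated mice, and so were Ighv counts in vehicle-treated mice with TBI. Each mouse was thinned to 282 V, 91 Ighv or 160 Igkv counts, the lowest of any mouse. Evenness was then measured as the effective number of segments, the inverse of their summed squared shares (inverse Simpson index). For Igkv it was 38.4, 39.0 and 40.1 in vehicle-treated Day 1 mice, 36.7, 37.6 and 38.2 with 100 mg/kg and 23.2, 35.8 and 37.5 with 200 mg/kg. It was 22.3, 26.9 and 32.5 after TBI and 13.6, 24.5 and 33.8 in 200 mg/kg mice with TBI. All 12 irradiated mice lay below the vehicle range, and so did the mice at 100 and 200 mg/kg.

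For Ighv the effective number was 31.9, 32.2 and 32.6 with vehicle, 26.3, 29.1 and 33.5 at 100 mg/kg and 22.8, 24.9 and 27.8 after TBI, with overlap at 100 mg/kg and none after TBI. Mice of the irradiated groups also resembled each other less. The Bray-Curtis dissimilarity of thinned V usage between 2 mice of a group had a median of 0.364 over the 15 pairs of vehicle-treated Day 1 mice, 0.374 at 100 mg/kg, 0.408 at 200 mg/kg and 0.515 in both irradiated groups.

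**Figure D5:**
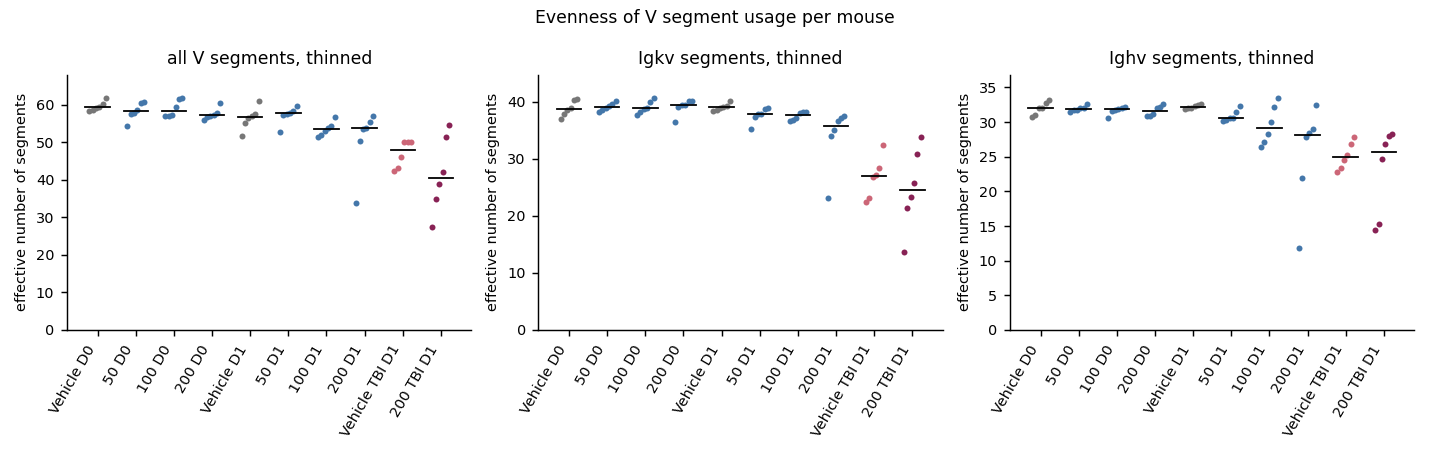
Effective number of V segments in each of the 60 mice after thinning to a fixed number of counts, for all V (282 counts), Igkv (160) and Ighv (91), with bars at group medians on linear axes from 0. The Igkv medians were 39.0 in vehicle-treated Day 1 mice, 26.9 after TBI and 24.5 at 200 mg/kg with TBI, and mouse 43 stood apart within the 200 mg/kg group with 33.9 effective V segments.

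Iglv3 was the segment with the most counts in all 6 mice of each of the 6 groups at higher V levels. It led in 4 of 6 mice at 100 mg/kg, 2 of 6 at 200 mg/kg, 1 of 6 after TBI and 0 of 6 at 200 mg/kg with TBI. The 6 mice of the vehicle-treated TBI group had 6 different leading segments.

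Single segments dominated in a few mice. In mouse 43 (200 mg/kg, Day 1), Ighv1-5, chosen after its values were seen, took 25.1% of Ighv counts and Igkv1-135 took 14.4% of Igkv counts, and its Ighv1-5 level was 9.65 CPM where the median of its group was 0.26 CPM. In mouse 60 (200 mg/kg with TBI), Igkv5-43 took 10.8% and was the only segment over 10% of a mouse's V counts, and Ighv5-17 took 22.2% of its Ighv counts. In mouse 58 of the same group Ighv3-6 took 20.1% of Ighv counts.

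The shares of V families within a locus overlapped between the Day 1 groups for Igkv4, Igkv3 and Ighv1. The Igkv4 family, with 25 members, held medians of 18.4, 16.0, 15.9, 17.9 and 16.2% of Igkv counts in the vehicle, 100 mg/kg, 200 mg/kg, TBI and 200 mg/kg with TBI groups of Day 1. The Igkv3 family, with 8 members, held medians of 16.1, 16.4, 13.9, 10.1 and 11.6%, and after TBI its range of 6.27 to 18.8% took in the vehicle range of 14.5 to 16.5%. The Ighv1 family, with 32 members, held medians of 32.9, 34.7, 30.4, 30.9 and 30.0% of Ighv counts, with overlapping ranges.

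Other, smaller families were separate from vehicle-treated mice of Day 1. The Igkv14 family, with 4 members including Igkv14-126, held 4.38, 5.00 and 7.59% of Igkv counts after TBI with vehicle against 2.95, 3.24 and 3.72% without TBI. The Ighv6 family, with 3 members, held 1.03, 1.93 and 2.38% of Ighv counts at 100 mg/kg against 2.67, 3.17 and 4.20%. Ighv15, with 1 member, took 0.174, 0.311 and 0.596% and was at 0 in all 12 irradiated mice, where reads below detection cannot be told from none. At 200 mg/kg with TBI, Igkv16 and Igkv19, each with 1 member, took 0.105, 0.411 and 0.737% against 0.900, 1.16 and 1.34%, and 0.277, 1.30 and 2.63% against 2.73, 2.94 and 4.05%. They were named after their values were seen, and of 33 families, those separate from vehicle numbered 3 at 100 mg/kg, 4 after TBI and 5 at 200 mg/kg with TBI, the single-segment Ighv11 and Iglv families included, with no test made.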

How the data were processed

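Whole blood RNA of 60 mice was sequenced, and the labels name polyA selection where the study's methods name a stranded kit with ribosomal and globin RNA removal. Per the labels and methods, the authors deposited raw counts per gene, made with Subread 1.5.2 from alignments to GRCm38 by STAR 2.5.2b after trimming in Trimmomatic 0.36. The annotation release and strand setting are not given in the sources used here. From the deposited result tables, which also hold the authors' fold changes, p-values and normalised counts, only gene names were used. Of the values of mice found in several of the 10 count tables, 0 differed, and 0 columns were left unmatched.

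Groups were taken from the labels, and mice labelled as separate animals were the replicates. Genes with at least 10 counts summed over the mice of a fit were tested with edgeR 4.0.16 (TMM, quasi-likelihood test, R 4.3.3, limma 3.58.1) on the groups of each comparison, and on 4 groups for the interaction. DEGs passed 2 thresholds, 0.05 on the Benjamini-Hochberg adjusted p and 1 on the size of the log2 fold change. Alternatives were DESeq2 1.42.0, scaling by total counts or by 15 B cell identity genes, other count filters and leaving out each mouse. Named segments were the 8 Ighv, 8 Igkv and 3 Iglv segments with the highest mean CPM, the 2 largest called changes per direction and comparison that averaged 1 CPM or more in either group without overlap, and segments over 10% of a mouse's V counts. Thinned usage was averaged over 200 draws. Scripts were tested on simulated data. The members and lists were chosen with earlier results of these data known. Depth set precision: with 282 to 25568 V counts per mouse, a segment at 0 in 1 mouse can hold reads below detection, and this covers counting error only.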

Additional observations from a re-analysis of the deposited data

Results flagged for a closer look

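A mouse was listed where its gap to the nearest mouse of its group, over the group's range, passed Dixon's 95% critical value for 6 values (0.625). Gaps and ranges were taken on the log2 scale, except for percentages and for groups in which any value was not positive. The values printed below are not on the log2 scale. This was looked for in 160 groups of values (16 measures in 10 groups) and found in 16, and chance alone gives about 1 in 20.

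The lowest mouse stood apart in summed Igkv at 10.7 CPM (mouse 50, vehicle with TBI), in Iglv2 at 0.325 CPM (mouse 47, 200 mg/kg Day 1), in Iglv3 at 13.4 CPM (mouse 22, 200 mg/kg Day 0) and 12.9 CPM (mouse 32, 50 mg/kg Day 1), and in Igkv4-51 at 1.18 CPM (mouse 32). It also stood apart in the effective number of V segments at 52.9 (mouse 31, 50 mg/kg Day 1), of Ighv segments at 30.7 (mouse 8, 100 mg/kg Day 0) and of Igkv segments at 36.4 (mouse 19, 200 mg/kg Day 0). Mouse 43 (200 mg/kg Day 1) was low in the effective number of V segments at 33.9 and of Igkv segments at 23.2, and it is the mouse in which Ighv1-5 and Igkv1-135 took large shares.

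The highest mouse stood apart in Ighv2-9 at 7.66 CPM and in Iglv1 at 14.6 CPM (both mouse 16, vehicle Day 0), in Iglv1 at 17.1 CPM (mouse 2, 50 mg/kg Day 0) and 19.3 CPM (mouse 26, vehicle Day 1), in Iglv counts per lambda constant count at 0.285 (mouse 29, vehicle Day 1), and in the share of Iglv among light chain V counts at 15.1% (mouse 3, 50 mg/kg Day 0).

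The effect of irradiation differed between vehicle and 200 mg/kg, by the interaction term in edgeR, for 37 V segments (22.6%). In each the log2 fold change with TBI was higher at 200 mg/kg than with vehicle, where 19.5% of all genes were called higher. The levels themselves were not higher: between the 2 irradiated groups the median log2 fold change of V segments was -0.35. With B cell gene scaling the interaction was higher for 5 segments and lower for 1, where 4.97% of all genes were higher and 28.3% lower.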

How the results depend on the processing

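Counts of called V segments changed most with scaling. With libraries scaled by 15 B cell identity genes, 4 segments were called higher and 9 lower at 100 mg/kg on Day 1, 9 lower at 200 mg/kg, 43 higher and 4 lower after TBI against Day 1, 35 higher and 3 lower against Day 0, 32 higher and 3 lower between the 2 groups given 200 mg/kg, 1 lower at 50 mg/kg on Day 0, and 5 higher and 1 lower in the interaction. With total counts, 41 were higher at 50 mg/kg on Day 0, 1 was higher and 9 lower between the 200 mg/kg groups, and 97 were higher in the interaction. With each mouse left out once, calls were 117 to 145 lower at 100 mg/kg, 124 to 142 at 200 mg/kg, 137 to 148 and 129 to 143 after TBI against Day 1 and Day 0, 15 to 42 between the 200 mg/kg groups, 25 to 45 in the interaction and 0 to 1 higher at 50 mg/kg on Day 0. Mice over 100 CPM of hepatocyte transcripts were also left out, an alternative chosen after the data were seen. In the same order of comparisons, the counts were then 114, 143, 153, 154 and 52 lower. The shares of all genes called lower were 29.4, 33.4, 23.5, 21.4 and 8.38%. The interaction was then higher for 51 segments, 31.1% of those tested, close to the 28.5% of all genes called higher. With B cell gene scaling the log2 fold change turned at 100 mg/kg for Iglv1 (0.40), Iglv2 (1.10), Ighm (0.15) and Igkc (0.18). It turned at 200 mg/kg for Igkv10-96 (0.15), Iglv2 (0.61), Ighm (0.30) and Igkc (0.16). It turned after TBI for Ighv2-9 (1.21), Igkv10-96 (0.93), Iglv1 (0.84), Iglv2 (2.72), Ighm (0.72), Igha (2.34) and Igkc (0.73), and between the 200 mg/kg groups for Ighv2-9 (1.505), Igkv10-96 (1.04), Iglv1 (1.61), Ighm (0.51) and Igkc (0.61). The lambda V ratio at 100 mg/kg, as a log2 ratio of medians, turned to 0.0695 over B cell identity genes. These turns follow from the scaling, which sets changes relative to the B cell genes. Of the other named values under alternatives, 92 kept direction and side of the threshold, 16 were no longer past it and 4 came to pass it. No paired analysis was possible because the animal numbers are unique to each mouse and pair no samples across groups. Depth limits single segments most in irradiated mice, where V counts were 282 to 2807 with vehicle and 629 to 3172 at 200 mg/kg.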
